A study of Mus musculus with 16 samples.

Results

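Pre-B cells stimulated for 5 h were set against pre-B cells stimulated for 1.5 h, so that the later time is read against the earlier time and not against unstimulated cells. The comparison takes 8 of the 16 samples, which are 4 sequencing lanes of 1 library at 5 h and 4 lanes of 1 library at 1.5 h. All cells were mouse Blnk-/- pre-B cells that carried a retroviral BLNK-ERt2 construct, and the control and 0.5 h libraries named beside some results came from the same kind of cell. ERt2 is an oestrogen receptor domain that places the fused protein under the control of tamoxifen. The drug dose, what the control cells received, the number of cultures and whether the cells were 1 clone are not stated, and of the kits named, TruSeq and NEBNext, it is not stated which made which library, so that the 5 h and 1.5 h libraries may differ by kit. The series set out to find genes regulated by preBCR signalling.

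The preBCR is the receptor of B cell precursors, made of an immunoglobulin heavy chain, a surrogate light chain and the signalling chains CD79A and CD79B. BLNK is the adaptor that links the kinase SYK to phospholipase C gamma and BTK, which feed calcium, MAP kinase and NF-kB signals. In pre-B cells these signals are known first to induce short-lived transcription factors and then to help the cell stop dividing and recombine its light chain genes, a step that FoxO factors favour and IL-7 signals oppose.

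The 5 h library held 30746189 reads in exons and the 1.5 h library 32631061, with lanes from 7631791 to 7748181 at 5 h and from 8097902 to 8228379 at 1.5 h. Each level is given as counts per 1000000 exon reads (CPM), and a count of 0 allows up to 3 reads, which is 0.0976 CPM at 5 h and 0.0919 CPM at 1.5 h. Lanes of 1 library repeat the sequencing and not the culture, so there is no test between the times, and intervals below cover counting error only. Ighm, the heavy chain gene, had 4793 CPM at 5 h and 4998 CPM at 1.5 h, and all 14 matched pre-B markers were above 1 CPM in at least 1 of these libraries. Blnk had 3533 CPM at 5 h and 3601 CPM at 1.5 h, against 3516 CPM in control cells, and exon reads do not separate the fusion from any other Blnk transcript. Markers of T and NK cells passed 1 CPM in 2 of 15 genes, with summed levels of 26.4 CPM at 5 h and 17.99 CPM at 1.5 h. These were Klrb1c, with 19.6 CPM at 5 h and 13.8 CPM at 1.5 h, and Cd247, with 5.27 and 3.74 CPM. Cd3e and Cd3g were at or near 0. Myeloid markers passed 1 CPM in 4 of 14 genes, summing to 90.4 CPM at 5 h and 111 CPM at 1.5 h. Among them Itgam had 35.9 CPM at 5 h and 58.5 CPM at 1.5 h, and Ctss 49.8 and 48.2 CPM, while Ly6g was at 0 in both. Erythroid markers summed to 12.2 CPM at 5 h and 13.6 CPM at 1.5 h, with Hbb-bt at 8.49 and 10.1 CPM. Among 12 stromal markers only Vim passed, and the list summed to 413 CPM at 5 h and 421 CPM at 1.5 h. Plasma cell markers passed in 5 of 7 genes, summing to 711 CPM at 5 h and 833 CPM at 1.5 h. Irf4, one of them, had 347 CPM at 5 h and 445 CPM at 1.5 h.

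Most genes had nearly the same level at both times. Among 9453 genes that reached 5 CPM at either time, 96.6% differed by less than 1.5-fold. A gene of this set was called when it differed by at least 2-fold after 1 CPM was added to both levels, and log2 ratios below are on that scale, 5 h over 1.5 h, while each fold is the plain quotient of the CPM values. By this rule 9 genes were higher at 5 h, which is 0.0952% of those examined, and 42 were lower, which is 0.444%. With 5 CPM added in place of 1 CPM, 19 of these calls were lost, among them those of Egr3, Klf10, Apold1, Tnf, Tgfb3, Nfkbid, Dusp10, Hk2, Mir17hg, Igf2bp3, Lgr5 and Zfp951, most of them genes at low level. Genes lower at 5 h were thus 42 of the 51 called. In bulk RNA, fewer cells that express a gene and less of its RNA per cell cannot be told apart. The 42 included transcription factors of the immediate early response, Myc, cytokine genes and enzymes of sterol synthesis.

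**Figure D1:**
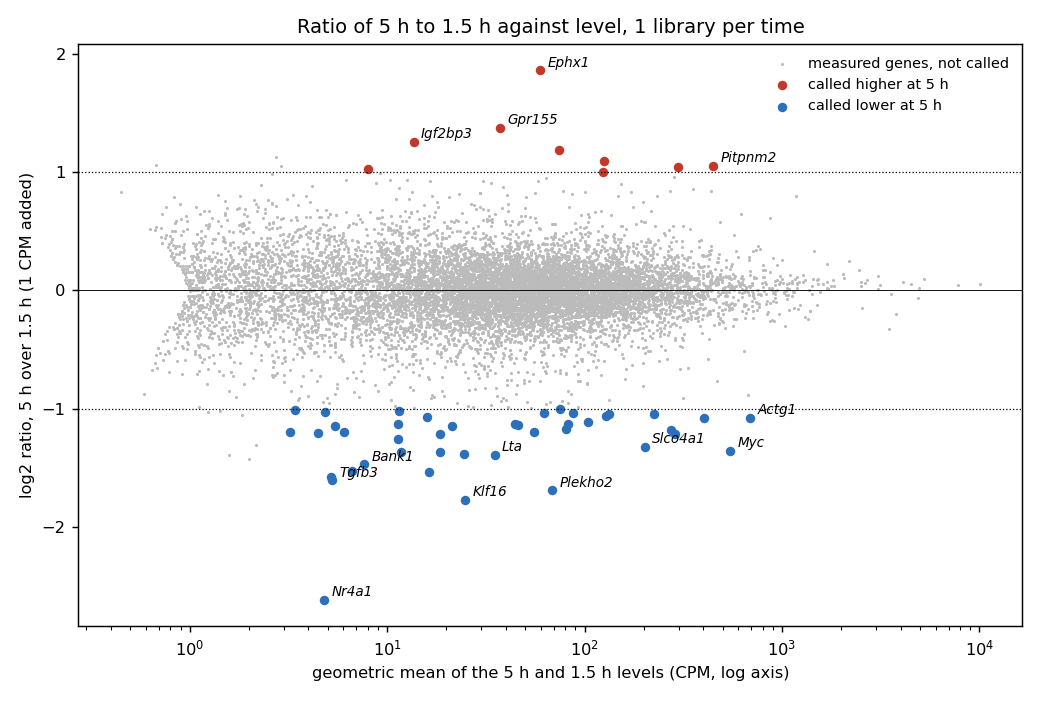
Each point is 1 gene, with the geometric mean of its 5 h and 1.5 h levels (CPM, log axis) on the x axis and the log2 ratio of 5 h over 1.5 h, after adding 1 CPM, on the y axis; dotted lines mark 2-fold. The 9 genes called higher (red) reach a log2 ratio of 1.86 at Ephx1, and the 42 called lower (blue) reach -2.62 at Nr4a1.

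Promoter stretches are printed for 5 genes of the groups that moved, because each holds a match to the site of a factor known to act on that group. They are from RefSeq on GRCm38.p6, 5′ to 3′ on the strand of the gene, with the matched letters in capitals. The Srf stretch is chr17:46556185-46556274 on the minus strand, and its CArG boxes, the sites that serum response factor itself binds, begin 82 and 62 bases before the start. The Egr2 stretch is chr10:67537464-67537533 on the plus strand, with a CArG box 72 bases before the start. The Actg1 stretch is chr11:120348546-120348615 on the minus strand, with a CArG box 90 bases before the start. The Hmgcs1 stretch is chr13:119690169-119690267 on the plus strand, with the letters TCACNCCAC of a sterol regulatory element 137 bases before the start. The Per1 stretch is chr11:69098738-69098833 on the plus strand, with the E-box CACGTG 166 bases before a start that lies inside the gene.
Srf promoter: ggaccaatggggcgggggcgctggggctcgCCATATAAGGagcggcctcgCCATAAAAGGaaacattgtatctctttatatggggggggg
Egr2 promoter: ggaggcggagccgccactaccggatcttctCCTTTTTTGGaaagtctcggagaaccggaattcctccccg
Actg1 promoter: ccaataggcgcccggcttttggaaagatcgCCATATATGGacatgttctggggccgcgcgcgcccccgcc
Hmgcs1 promoter: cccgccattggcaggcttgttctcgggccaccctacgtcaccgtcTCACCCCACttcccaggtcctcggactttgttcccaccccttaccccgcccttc
Per1 promoter: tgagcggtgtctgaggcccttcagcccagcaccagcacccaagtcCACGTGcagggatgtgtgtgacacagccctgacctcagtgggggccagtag

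Promoters of 7506 of the 9453 genes were matched in the RefSeq table, including 29 of the 42 genes called lower and 7 of the 9 called higher. CArG boxes, searched on both strands and chosen after the values were seen, stood in promoters of 2 of 16 matched immediate early genes, Srf and Egr2, and of 4 of 23 matched genes of the SRF and actin list, against 99 of all 7506. Among promoters of the 29 genes called lower, 2 of 35, or 5.71%, held a CArG box, against 1.06% of all. These were those of Srf and Actg1, printed above because they hold it, so the share is no separate support. The E-box stood in 5 of 16 promoters of the clock list, or 31.2%, from 4 genes. It stood in 10.7% of all promoters and in 11.4% of those of genes called lower. Its share was 21.4% in the sterol list, 17% in ribosome biogenesis and 15% in the immediate early list. In the SRF and actin list it was 11.1%, and in the ATF4 list 10%. The sterol element, also chosen after the values were seen, was in 1 of 28 promoters of the sterol list, that of Hmgcs1, against 1.15% of all. The sterol list held the NF-Y box CCAAT in 67.9% of promoters, against 38.7% of all. This was not particular to it, as the share was 81.2% in the clock list. It was 50% in the ATF4 list, 48.1% in the SRF and actin list, 45% in the immediate early list and 26.4% in ribosome biogenesis. A STAT site, TTCNNNGAA, stood in 7 of 35 promoters of genes called lower, from 6 genes, against 6.69% of all. The share was 16.7% in the ATF4 list, 12.5% in the clock list and 0% in the immediate early list. An EGR site, GCGTGGGCG, stood in 3 of the 35, or 8.57%, against 1.24% of all. Such matches are letters in a window of 300 bases and say nothing of binding in these cells.

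Immediate early transcription factors made up the group with the lowest median. Of 22 measured members, which are those with at least 1 CPM in either library, 20 were below a ratio of 1, against 50.9% of all measured genes. Called lower were 5, against 0.444% of the genes examined. The median log2 ratio of the list was -0.79, against -0.0045 over all measured genes. Nr4a1 (chr15:101266846-101274792 in mm10, as the files give it), an orphan nuclear receptor induced by antigen receptor signals, had 1.43, 1.97, 2.09 and 0.774 CPM in the 4 lanes at 5 h, against 13.6, 14.5, 15.5 and 15.3 CPM at 1.5 h. It fell 9.42-fold (interval 6.99 to 12.96), more than any other called gene, and no lane at 5 h reached a lane at 1.5 h. Egr1, a zinc finger factor, had 3.90, 3.28, 4.44 and 2.84 CPM at 5 h, against 13.3, 10.7, 11.8 and 13.3 CPM at 1.5 h. Its 3.40-fold fall (2.75 to 4.24) followed a peak at the earliest time, since the 4 libraries held 1.77, 153, 12.3 and 3.61 CPM from control through 0.5 and 1.5 to 5 h. Egr3, of the same family, fell 2.79-fold, to 2.67 CPM at 5 h, against 7.45 CPM at 1.5 h. Klf10 fell 2.34-fold, to 7.42 CPM at 5 h, against 17.4 CPM at 1.5 h. Its level was 16.2 CPM in the control and 15.9 CPM at 0.5 h, so its 5 h level was below that of the control.

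Srf, the gene of serum response factor and the bearer of the paired CArG boxes above, had 12.1, 9.04, 5.74 and 10.1 CPM at 5 h, against 25.8, 30.7, 27.5 and 30.7 CPM at 1.5 h. Only 28.3% of its reads were uniquely placed, and with unique reads alone its log2 ratio was -0.80, against -1.54 with all reads, so its call was lost. Other members of the immediate early list were not called. Junb had 37.5 CPM at 5 h and 75.6 CPM at 1.5 h, just short of the threshold. Egr2 had 0.585 CPM at 5 h and 2.15 CPM at 1.5 h, under the floor of 5 CPM, so it could not be called. Both were picked after their values were seen. Apold1, an endothelial early response gene outside the list, fell 3.73-fold (2.93 to 4.81), to 2.70 CPM at 5 h, against 10.1 CPM at 1.5 h.

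The actin list, which holds SRF and genes it is known to drive, showed the same direction at smaller size. Of 24 measured members 20 were below a ratio of 1, against 50.9% of all measured genes, and the median was -0.26. Called lower were 2, Srf and Actg1, against 0.444% of the genes examined. Actg1, the gene of cytoplasmic gamma actin, had 485, 508, 426 and 486 CPM at 5 h, against 1064, 996, 1006 and 965 CPM at 1.5 h. All lanes at 5 h lay below all lanes at 1.5 h, but only 0.400% of its reads were unique, so reads of its close copies cannot be separated from its own. Cnn2, an actin-binding calponin, had 34.2 CPM at 5 h and 60.2 CPM at 1.5 h and was not called.

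Myc (chr15:61985391-61990374), the mitogen-induced transcription factor that drives cell growth, had 336, 351, 345 and 330 CPM in the lanes at 5 h, against 880, 880, 874 and 867 CPM at 1.5 h. The lanes of each time were close together, and the level fell 2.57-fold (2.51 to 2.63). Across the 4 libraries it held 293, 923, 875 and 341 CPM from control to 5 h, so its 5 h level was within 1.5-fold of the control. Mir17hg, the host gene of the miR-17-92 cluster and a known Myc target, fell 2.07-fold, to 43.2 CPM at 5 h, against 89.5 CPM at 1.5 h. Among 11 measured genes of the Myc and Max network 7 were below a ratio of 1, against 50.9% of all measured genes. Myc was the only one called, where 0.444% of the genes examined were called lower. Mnt, which competes with Myc for Max, had 48.7 CPM at 5 h and 74.7 CPM at 1.5 h, while Mxi1, another competitor, had 75.5 CPM at 5 h and 55.1 CPM at 1.5 h.

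Most targets of NF-kB and NFAT and most secreted factors had lower values at 5 h, and few passed the call. Of 15 measured NF-kB and NFAT targets 13 were below a ratio of 1 and 2 were called lower, with a median log2 ratio of -0.67. Of 15 measured cytokines and growth factors 11 were below it and 3 were called lower, with a median of -0.40, and Lta and Tnf are in both lists. Over all genes, 50.9% of those measured were below a ratio of 1 and 0.444% of those examined were called lower. Lta, the gene of lymphotoxin alpha, had 20.5, 22.01, 21.9 and 21.2 CPM at 5 h, against 58.4, 58.9, 56.2 and 57.4 CPM at 1.5 h. It fell 2.70-fold (2.47 to 2.95), and the lanes of the times did not overlap. The control level of Lta, 62.7 CPM, was higher than either. Tnf, its neighbour on chromosome 17, fell 2.64-fold, to 3.74 CPM at 5 h, against 9.87 CPM at 1.5 h. Tgfb3, a TGF-beta ligand, fell 3.80-fold (2.98 to 4.90), to 2.70 CPM at 5 h, against 10.3 CPM at 1.5 h, and its control level of 20.8 CPM was higher than either. Relb, a subunit of NF-kB, had 9.46 CPM at 5 h and 19.8 CPM at 1.5 h, a log2 ratio of -0.99 just short of the call. Nfatc1, the calcium-driven factor that raises its own transcription, had 78.6 CPM at 5 h and 136 CPM at 1.5 h.

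Inhibitors that signalling itself induces were mostly lower as well. In the list of feedback genes 17 of 24 were below a ratio of 1, against 50.9% of all measured genes. Called lower were 2, against 0.444% of the genes examined, neither of them with 5 CPM added. Nfkbid, which encodes a nuclear inhibitor of the IkB family, fell 2.30-fold, to 13.99 CPM at 5 h, against 32.2 CPM at 1.5 h. Dusp10, a phosphatase of the stress MAP kinases, fell 2.20-fold, to 10.8 CPM at 5 h, against 23.7 CPM at 1.5 h. Bank1, a scaffold of B cell receptor signalling, was the only called gene among 34 measured members of the receptor and its proximal signalling. It was called lower, as were 0.444% of the genes examined. It had 5.06, 4.19, 4.83 and 3.10 CPM at 5 h, against 12.7, 16.04, 13.7 and 12.2 CPM at 1.5 h, and 16.2 CPM in the control. The median of that list was -0.08.

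In the list of IL-7 receptor, STAT5 and their target genes 17 of 22 measured members were below a ratio of 1. Over all measured genes 50.9% were. Called lower were Pim3 and Myc, 2 of the 22, against 0.444% of the genes examined. Pim3, a serine/threonine kinase that promotes survival, fell 2.80-fold (2.40 to 3.28), to 7.03 CPM at 5 h, against 19.7 CPM at 1.5 h. Ccnd3, the D cyclin on which pre-B cell division depends, had 358 CPM at 5 h and 608 CPM at 1.5 h, and Cish, a STAT5-induced inhibitor, had 36.8 CPM at 5 h and 71.6 CPM at 1.5 h. Neither was called, and 39.2% of Cish reads were unique. Il7r had 97.4 CPM at 5 h and 79.4 CPM at 1.5 h.

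Sterol synthesis was the metabolic list with the most called members. Of 27 measured members 24 were below a ratio of 1, against 50.9% of all measured genes. On the log2 scale with 1 CPM added, 12 were at least 1.5-fold lower, against 2.27% of all measured genes. Called lower were 3, against 0.444% of the genes examined. The median was -0.52. Hmgcs1, which makes HMG-CoA, had 193, 190, 187 and 186 CPM at 5 h, against 429, 446, 444 and 444 CPM at 1.5 h. It fell 2.33-fold (2.26 to 2.40). Sc4mol, a sterol C4-methyl oxidase gene, fell 2.08-fold, to 91.9 CPM at 5 h, against 191 CPM at 1.5 h. For Hmgcs1 and Sc4mol the 5 h level was also below the control, which held 334 CPM of Hmgcs1 and 137 CPM of Sc4mol. Mvd, a mevalonate pathway decarboxylase, had 19.1 CPM at 5 h and 38.9 CPM at 1.5 h and was not called. Genes of the machinery that senses sterols, picked after their values were seen, were not called. Their log2 ratios were -0.40 for Insig1, -0.27 for Srebf2, -0.14 for Srebf1, 0.03 for Scap and 0.27 for Insig2. In fatty acid synthesis 14 of 17 members were below a ratio of 1, against 50.9% of all measured genes, and 0 were called. Fasn had 493 CPM at 5 h and 912 CPM at 1.5 h. Gpam, an acyltransferase of glycerolipid synthesis, had 397 CPM at 5 h and 203 CPM at 1.5 h.

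**Figure D2:**
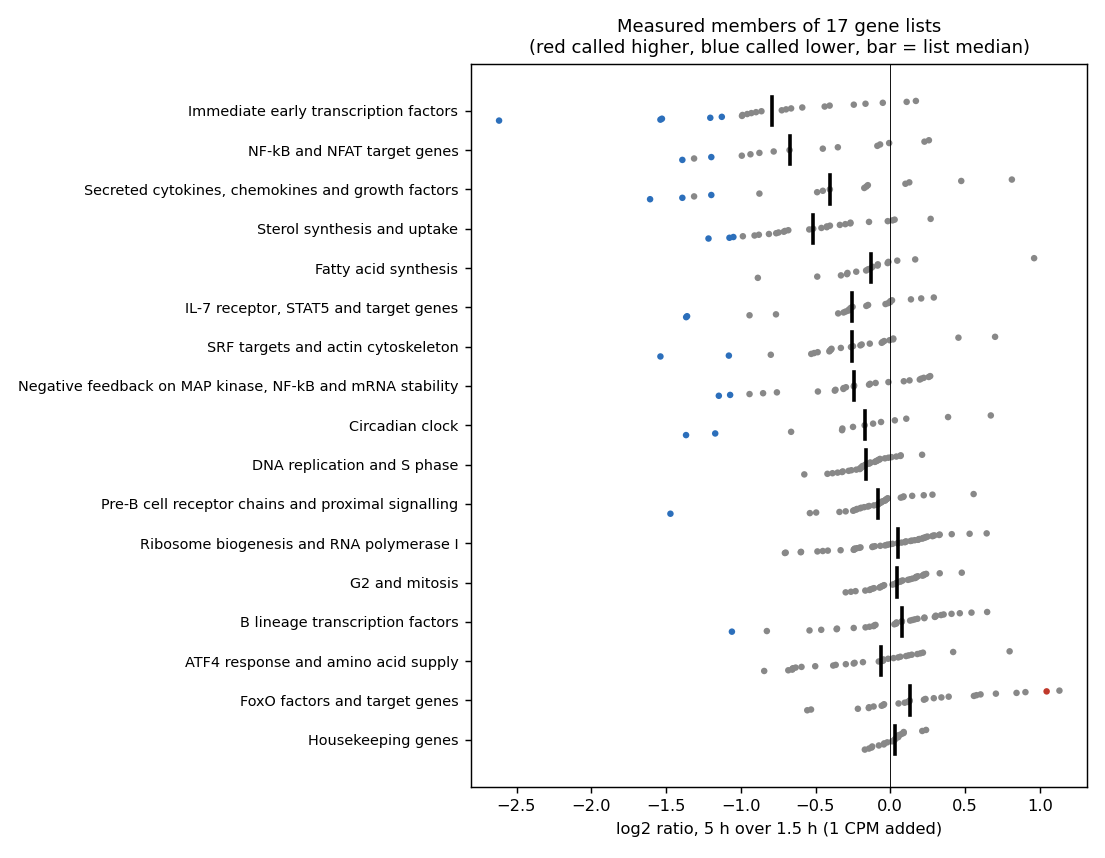
Each point is 1 measured member of a gene list, placed by its log2 ratio of 5 h over 1.5 h after adding 1 CPM (x axis), with lists down the page and black bars at list medians. The immediate early list has the lowest median, -0.79, and sterol synthesis lies at -0.52, while housekeeping genes lie at 0.03.

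Circadian and metabolic regulators were also among the genes that fell. Nr1d1, the nuclear receptor REV-ERB alpha that represses clock genes, had 10, 14.02, 10.7 and 10.3 CPM at 5 h, against 29.6, 31.4, 31.6 and 29.7 CPM at 1.5 h. It fell 2.72-fold (2.40 to 3.08), to a level near the 8.98 CPM of the control. Per1, a period gene with the E-box shown above, fell 2.27-fold (2.15 to 2.41), to 53.4 CPM at 5 h, against 122 CPM at 1.5 h. Among 13 measured clock genes 9 were below a ratio of 1, against 50.9% of all measured genes. Nr1d1 and Per1 were the 2 called lower, against 0.444% of the genes examined. Nr1d2, the close relative of Nr1d1, had 18.3 CPM at 5 h and 11.1 CPM at 1.5 h and was not called. Hk2, the inducible hexokinase, fell 2.07-fold, to 60.9 CPM at 5 h, against 126 CPM at 1.5 h. It was the only called gene of 23 measured in glycolysis, where 0.444% of the genes examined were called lower. Pprc1, a coactivator of mitochondrial gene programmes, fell 2.18-fold, to 70.3 CPM at 5 h, against 153 CPM at 1.5 h.

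Several genes that fell belonged to none of the lists. Klf16, a Krüppel-like factor, had 13.8, 14.2, 12.4 and 12.3 CPM at 5 h, against 45.1, 47.5, 49.2 and 47.1 CPM at 1.5 h. It fell 3.59-fold (3.22 to 4.02), and the groups of lanes were far apart. Plekho2, a pleckstrin homology domain gene, fell 3.29-fold (3.08 to 3.52), to 37.7 CPM at 5 h, against 124 CPM at 1.5 h. Slco4a1, an organic anion transporter gene, fell 2.51-fold, to 128 CPM at 5 h, against 321 CPM at 1.5 h. Sema7a, a membrane-anchored semaphorin, fell 2.71-fold, to 14.9 CPM at 5 h, against 40.4 CPM at 1.5 h. Bcar3, an adaptor of the p130Cas pathway, fell 2.28-fold, to 182 CPM at 5 h, against 414 CPM at 1.5 h. In the list of B lineage factors, Bcl11a, a zinc finger factor needed for B lymphopoiesis, fell 2.10-fold, to 88.7 CPM at 5 h, against 186 CPM at 1.5 h, but 33.1% of its reads were unique and the call was lost with those alone. Of the other genes called lower, Cox6a2, Prps1l3 and Tgif2 had 30.7, 11.2 and 22.9% unique reads, and their calls were lost in the same way.

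The 9 genes called higher at 5 h shared no list of more than 1 called member. Ephx1 (chr1:180976155-181020904), which encodes microsomal epoxide hydrolase, had 114, 120, 116 and 110 CPM at 5 h, against 26.9, 32.8, 31.2 and 32.5 CPM at 1.5 h. It rose 3.72-fold (3.47 to 3.99), with no overlap of lanes. Gpr155, an orphan receptor-like membrane protein, had 61.9, 61.8, 59.6 and 61.4 CPM at 5 h, against 22.7, 22.2, 22.1 and 24.7 CPM at 1.5 h, a rise of 2.67-fold (2.45 to 2.91). Pitpnm2, a phosphatidylinositol transfer protein of the membrane-associated class, had 652, 641, 632 and 656 CPM at 5 h, against 299, 321, 307 and 312 CPM at 1.5 h. It rose 2.08-fold (2.03 to 2.13) and was the most abundant of the 9 at 5 h. Lgr5, a receptor of R-spondins that amplifies Wnt signals, had 170, 171, 179 and 181 CPM at 5 h, against 87.6, 90.2, 84.1 and 86.5 CPM at 1.5 h, a 2.01-fold rise (1.92 to 2.11) that lies at the threshold. Igf2bp3, an RNA-binding protein of fetal lymphopoiesis, rose 2.55-fold, to 21.8 CPM at 5 h, against 8.55 CPM at 1.5 h. Tifa, a TRAF-interacting adaptor, rose 2.15-fold, to 184 CPM at 5 h, against 85.6 CPM at 1.5 h. Trp53inp1, a stress protein induced by p53 and by FoxO factors, rose 2.07-fold, to 427 CPM at 5 h, against 206 CPM at 1.5 h. Atxn7l1 rose 2.30-fold, to 113 CPM at 5 h, against 49.1 CPM at 1.5 h, with 41.3% of its reads unique, and Zfp951 rose 2.23-fold, to 11.9 CPM at 5 h, against 5.33 CPM at 1.5 h. Igf2bp3, Lgr5, Pitpnm2 and Tifa were not called when reads of the whole gene were used in place of exon reads, and Lgr5 and Zfp951 were each lost when either of 2 lanes was left out.

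**Figure D3:**
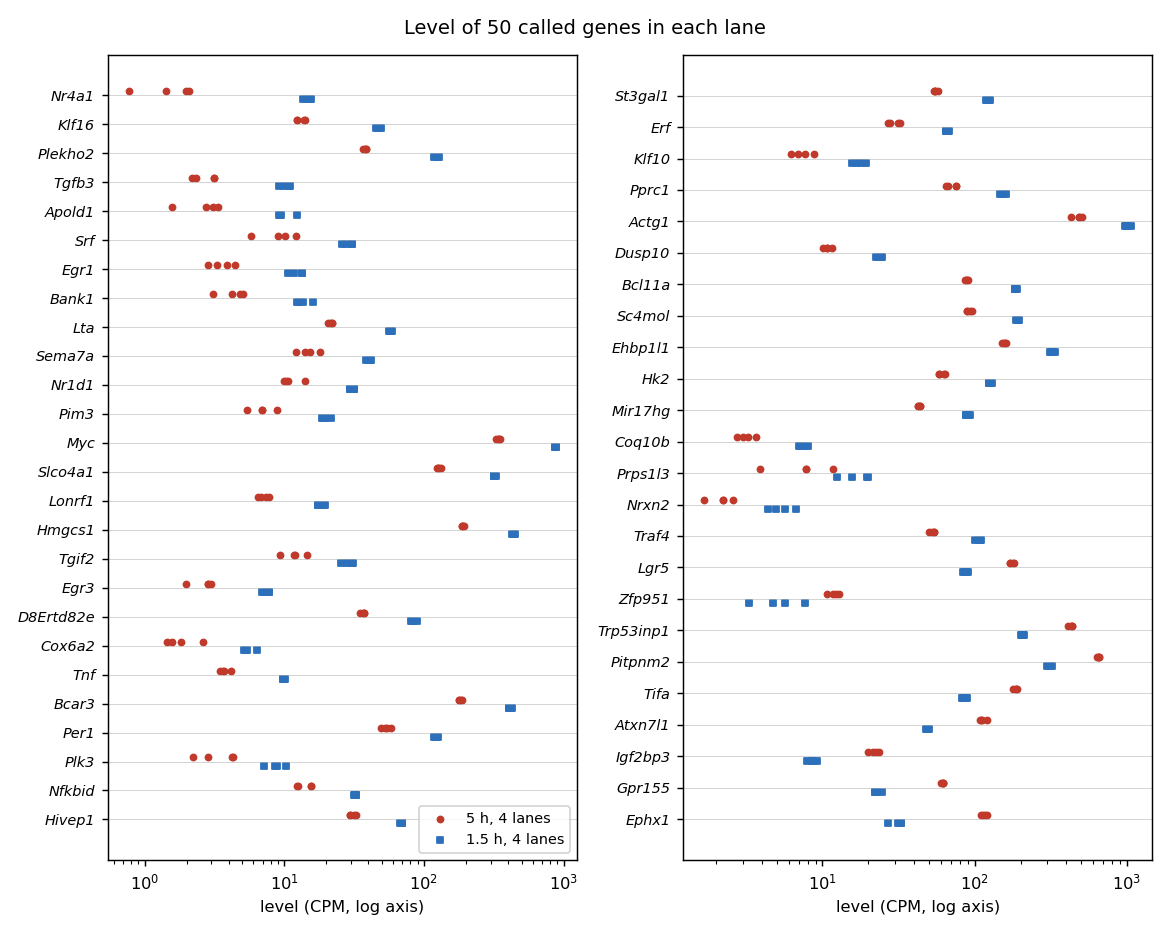
The level of 50 of the 51 called genes (CPM, log axis) is shown in the 4 lanes at 5 h (red circles) and the 4 lanes at 1.5 h (blue squares), with genes down the page from the lowest ratio to the highest. Lanes of the times are far apart for Nr4a1 and Ephx1 and closest for Prps1l3, whose highest lane at 5 h has 11.7 CPM and whose lowest lane at 1.5 h has 12.4 CPM.

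Genes that FoxO factors are known to drive had mostly higher levels at 5 h than at 1.5 h, but not than in control cells. Of 27 measured members 18 were above a ratio of 1, against 49.1% of all measured genes. On the log2 scale 6 were at least 1.5-fold higher, against 1.59% of all. Trp53inp1 was the only one called, where 0.0952% of the genes examined were called higher. The median was 0.13. Against the control, the list median was -0.22 at 1.5 h and -0.07 at 5 h. Of the 27 members, 6 were above the control at 1.5 h, and 16 were below it at 5 h. Ccng2, a cyclin of quiescent cells, had 209 CPM at 5 h and 111 CPM at 1.5 h, Pik3ip1, an inhibitor of PI3 kinase, had 104 CPM at 5 h and 57.6 CPM at 1.5 h, and Cdkn1b, the cell cycle inhibitor p27, had 225 CPM at 5 h and 137 CPM at 1.5 h. None of these 3 was called. Rag1, a subunit of the V(D)J recombinase, had 4.68 CPM at 5 h and 1.59 CPM at 1.5 h, under the floor of the rule, with 7.65% of reads unique. Rag2 had 5.98 CPM at 5 h and 3.74 CPM at 1.5 h. Dntt, the terminal transferase of heavy chain joining, had 48.0 CPM at 5 h and 93.1 CPM at 1.5 h, a log2 ratio of -0.94. Foxo1 itself had 118 CPM at 5 h and 100.2 CPM at 1.5 h, against 170 CPM in control cells.

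Lineage and cell cycle lists gave few calls. Over all genes examined, 0.0952% were called higher and 0.444% lower. Among 33 measured B lineage transcription factors 21 were above a ratio of 1, against 49.1% of all measured genes, and Bcl11a was the only call. Sox4 had 775 CPM at 5 h and 494 CPM at 1.5 h, Bach2 had 340 CPM at 5 h and 233 CPM at 1.5 h, and Spib had 26.5 CPM at 5 h and 47.7 CPM at 1.5 h. Of 34 S phase genes 29 were below a ratio of 1, against 50.9% of all measured genes, with a median of -0.17 and 0 calls. Of 34 genes of G2 and mitosis 21 were above a ratio of 1, against 49.1%, with a median of 0.05 and 0 calls. In the G1 list 13 of 21 measured members were below a ratio of 1, and 0 were called. On the log2 scale 3 were at least 1.5-fold lower, against 2.27% of all measured genes, and 2 at least 1.5-fold higher, against 1.59%. Cdk6, a kinase that D cyclins activate, had 196 CPM at 5 h and 113 CPM at 1.5 h.

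Placed in the time course, the genes called lower were mostly genes at their highest at 1.5 h. The 1.5 h library was the highest of the 4 for 31 of the 42, the 0.5 h library for 9 and the control for 2. At 5 h, 30 of the 42 were within 1.5-fold of the control, and 29 were below both the control and the 1.5 h level. The share of all genes that close to the control was not counted. The only such share at hand is for another pair and scale, 96.6% between 5 h and 1.5 h with 1 CPM added. Whether closeness to the control is particular to the 30 therefore cannot be said. Against the control, 21 of the 42 were called higher at 1.5 h, a call made for 0.641% of genes in that comparison. At 5 h 5 were called lower, against 0.399% of genes, namely Tgfb3, Bank1, Lta, Klf10 and Nrxn2. These comparisons share the 1.5 h or 5 h library with the ratio that chose the genes, so the counts describe the members and test nothing. Among the 9 genes called higher, the 1.5 h library was the lowest of the 4 for 6. Against the control, 2 of the 9 were called lower at 1.5 h, against 0.210% of genes, and 4 were called higher at 5 h, against 0.336%. Tifa held 180, 151, 85.6 and 184 CPM and Trp53inp1 366, 335, 206 and 427 CPM from control to 5 h, so that the 5 h level was close to that of the control. Ephx1, Pitpnm2 and Lgr5 instead had their highest level at 5 h by a wide margin, with 22.1, 19.7, 30.9 and 115 CPM for Ephx1 in the same order.

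**Figure D4:**
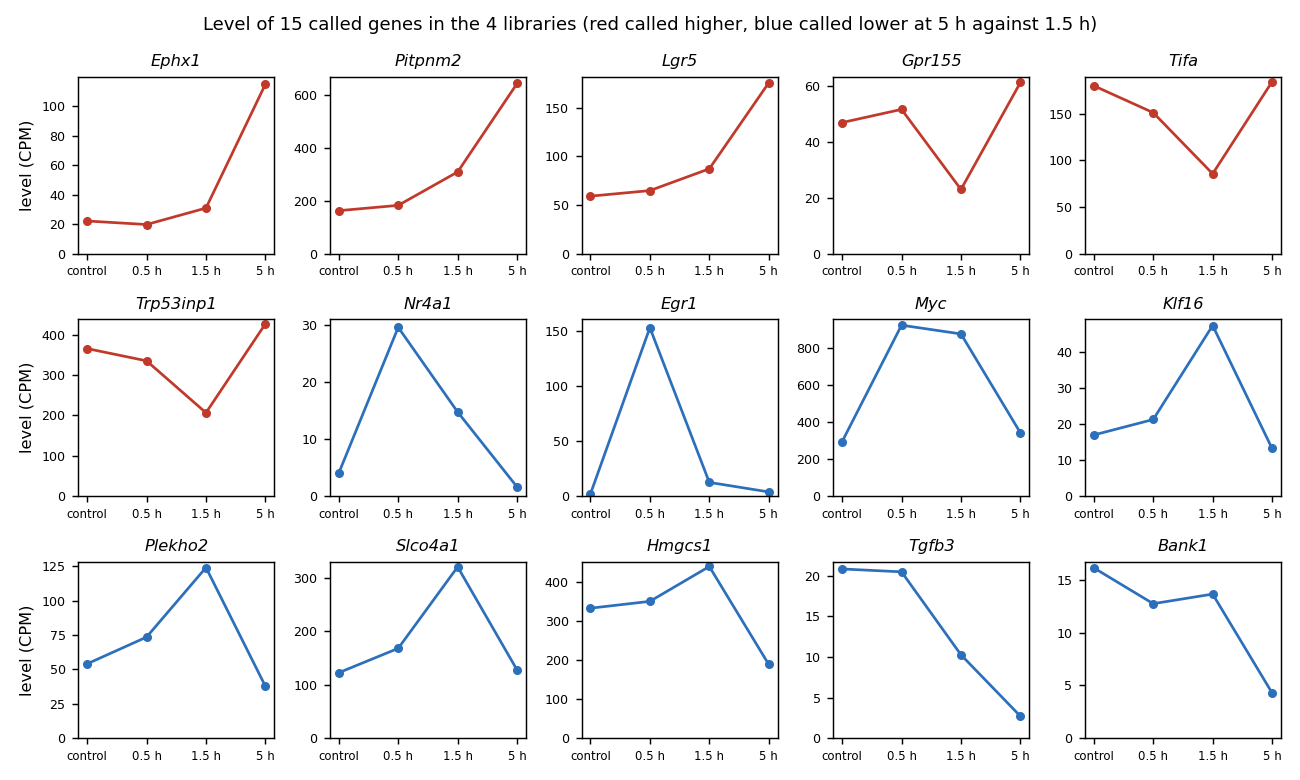
Level (CPM, linear axes from 0) of 15 called genes in the control, 0.5 h, 1.5 h and 5 h libraries, 1 library each. Gpr155, Tifa and Trp53inp1 are lowest at 1.5 h, Egr1 peaks at 0.5 h with 153 CPM, and Klf16, Plekho2, Slco4a1 and Hmgcs1 peak at 1.5 h.

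Reads that fall within a gene but outside its exons, which are mostly intronic and can come from unspliced RNA or from overlapping genes, give a measure that the calls did not use. They were scaled per 1000000 exon reads and taken where a gene had at least 20 such reads in either library. Such reads made up 20.8% of the exon total at 5 h and 19.6% at 1.5 h, and 42.3% of genes with at least 5 CPM had fewer of them at 5 h and 57.7% had more. Of the 42 genes called lower, 35 had enough reads, and all 35 had fewer at 5 h, with a median log2 ratio of -0.92 and an interval below 1 for 31. Myc had 587 such reads at 5 h and 1380 at 1.5 h, and Bcl11a had 563 at 5 h and 1418 at 1.5 h. Slco4a1 had 1110 at 5 h and 2227 at 1.5 h. In these genes reads inside and outside exons were lower together. Sterol genes differed from them, as Hmgcs1 had 184 such reads at 5 h and 229 at 1.5 h, a log2 ratio of -0.23, and Sc4mol had 277 at 5 h and 299 at 1.5 h, a log2 ratio of -0.02. Of the 9 genes called higher, 8 had more such reads at 5 h. Ephx1 was the exception, with 234 reads outside exons at 5 h and 329 at 1.5 h, a log2 ratio of -0.41 beside 1.86 for its exon reads.

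Ribosome biogenesis and RNA polymerase I genes, which make and assemble ribosomes and include many known Myc targets, showed the widest split between the measures among lists with at least 8 members that had enough such reads. Their exon reads had a median log2 ratio of 0.05, with 28 of 50 members above a ratio of 1 and 0 called. Reads outside exons were lower at 5 h in 46 of the 47 members with enough of them, against 41.4% of all measured genes, with a median log2 ratio of -0.70 and an interval below 1 in 35. The median was -0.73 with uniquely placed reads, and lay between -0.67 and -0.79 when any lane was left out. Examples picked after their values were seen show the split. Rrp9, a component of the U3 snoRNP, had 29 reads outside exons at 5 h and 116 at 1.5 h, with exon levels of 40.6 CPM at 5 h and 48.1 CPM at 1.5 h. Bop1, which acts in large subunit assembly, had 209 such reads at 5 h and 558 at 1.5 h, with exon levels of 157 CPM at 5 h and 132 CPM at 1.5 h. Npm1, the nucleolar chaperone nucleophosmin, had 653 at 5 h and 1170 at 1.5 h, with exon levels of 1629 CPM at 5 h and 1295 CPM at 1.5 h. Polr1b, a subunit of RNA polymerase I, was lower in both measures, with 168 such reads at 5 h and 420 at 1.5 h, and exon levels of 42.6 CPM at 5 h and 70.0 CPM at 1.5 h. Summed over the 47 genes, reads outside exons came to 264, 309, 575 and 353 per 1000000 exon reads from control to 5 h, with the highest value at 1.5 h. Some introns of such genes hold small nucleolar RNAs, and their part in these reads was not tested.

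In other lists the measures were set side by side without a test of their difference. Of 31 nucleotide, folate and polyamine synthesis genes with enough reads outside exons 25 were lower at 5 h, with a median of -0.57, beside an exon median of 0.06. Odc1, the first enzyme of polyamine synthesis, had 53 such reads at 5 h and 106 at 1.5 h, while its exon level was 246 CPM at 5 h and 214 CPM at 1.5 h. Cad, which starts pyrimidine synthesis, had 83 at 5 h and 165 at 1.5 h, with 272 CPM in exons at 5 h and 202 CPM at 1.5 h. Of 35 cytosolic ribosomal protein genes 32 had fewer such reads at 5 h, with a median of -0.33, beside an exon median of 0.01. Of 26 ATF4 and amino acid supply genes 25 had fewer, with a median of -0.38. In exon reads 19 of 30 measured members were also below a ratio of 1, against 50.9% of all measured genes. Atf4 itself, a stress-induced transcription factor, had a log2 ratio of -0.65 in exons and -0.13 outside them, picked after its values were seen. Of the genes of G2 and mitosis 30 of 34 had more reads outside exons at 5 h, with a median of 0.32. Of S phase genes 24 of 32 had more, with a median of 0.22, beside the exon median of -0.17. In glycolysis 15 of 23, or 65.2%, had more, with a median of 0.19. Over all measured genes with enough such reads, 58.6% had more and 41.4% fewer, with a median of 0.07. The lists were described on this measure after it had been seen for the called genes.

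**Figure D5:**
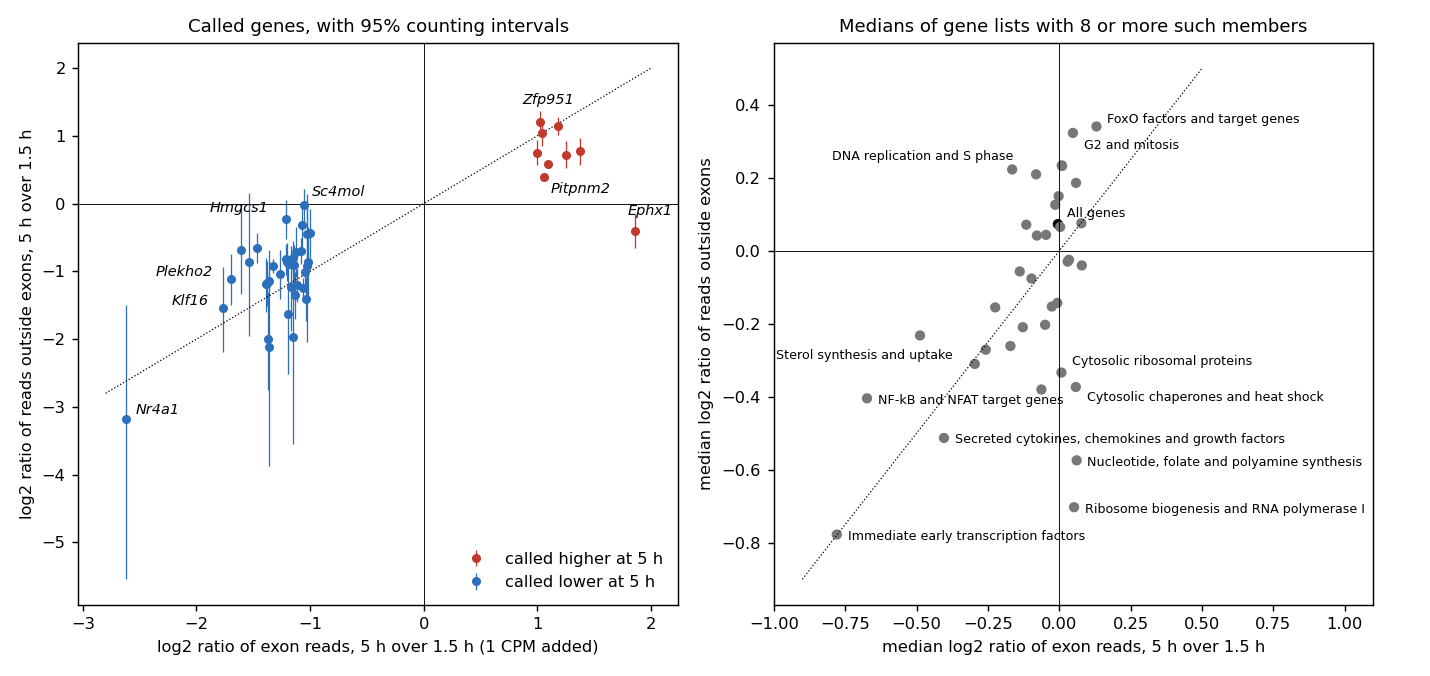
Left, log2 ratio of exon reads (x axis) against that of reads outside exons (y axis), both 5 h over 1.5 h, for called genes with at least 20 reads outside exons, with 95% counting intervals as bars. Right, list medians of the same ratios, where the dotted line marks equal values; ribosome biogenesis lies at 0.05 for exon reads and -0.70 outside exons, and the immediate early list at -0.78 on both.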

How the data were processed

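RNA was selected for poly(A) and sequenced on an Illumina instrument, per the labels' protocols, and the submitters' processing notes name CASAVA 1.8.2 and mm10. The aligner, counting program and strand setting were not given in the sources used here, so reads on opposite strands cannot be told apart. The deposited tables hold raw read counts per gene and lane made by the authors (total and unique exon reads, total gene reads), per the file headers. Their RPKM columns and fold changes were not used.

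Tables were joined by feature (38918 features), and the 4 lanes of each library, which share 1 index, were summed. No lanes held identical counts, and chi-square per degree of freedom between lanes was 1.24 at 5 h and 1.27 at 1.5 h for total exon reads, and 0.992 at 5 h and 1.00 at 1.5 h for unique exon reads. Total exon reads were scaled to CPM. A call needed a 2-fold ratio with 1 CPM added and 5 CPM in the higher library. Ratio intervals are exact Clopper-Pearson 95% intervals. With 1 library per time no test was possible, and PCR copies cannot be told from separate molecules.

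The rule for named genes took the 20 largest called ratios in each direction with predicted genes left out, all called members and up to 4 measured members with the largest ratios of each list, and a set of known pre-B cell genes. Not every such gene is reported, and 1 called gene is not reported here by name. Genes named outside the rule were picked after their values were seen. The members and 44 lists, in which 929 of 932 genes were matched, were chosen with earlier results of these data known. Alternatives used TMM factors from edgeR 4.0.16 and size factors from DESeq2 1.42.0 in R 4.3.3. Intervals came from scipy 1.17.1, tables from pandas 2.3.3 and numpy 2.4.6, and plots from matplotlib 3.10.9, under Python 3.11.15. The calling step was tested on simulated data. Unique reads as a filter on calls and unique reads outside exons were added after the data were seen.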

Additional observations from a re-analysis of the deposited data

Results flagged for a closer look

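In 6 of 102 sets of 4 lanes, from the 51 called genes at both times, 1 lane stood apart from the other lanes of its library, where chance gives about 1 in 20. At 5 h, Egr3 had 1.97 CPM in lane 2, against 2.84 CPM or more in the other lanes. At 1.5 h, Apold1 had 12.3 CPM in lane 2, against 9.22 to 9.51 CPM in the other lanes, and Sc4mol had 185 CPM there, against 192 to 194 CPM. Lane 1 at 1.5 h had 67.1 CPM of Hivep1, against 69.4 to 69.6 CPM, and 429 CPM of Hmgcs1, against 444 to 446 CPM. Lane 4 at 1.5 h had 189 CPM of Bcl11a, against 184 to 185 CPM. None of these genes lost its call when a lane was left out.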

How the results depend on the processing

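The 51 calls kept their direction under every alternative run, and 26 held as calls under all settings of scale, read type, pseudocount and lane. The 9 genes higher became 14 with a pseudocount of 0.1 CPM, 123 at 1.5-fold and 1 at 3-fold. The 42 lower became 26 with a pseudocount of 5 CPM, 27 with a floor of 20 CPM, 200 at 1.5-fold and 4 at 3-fold. Other calls lost with 5 CPM added were those of Coq10b, Cox6a2, Lonrf1, Nrxn2, Plk3, Prps1l3 and Traf4. TMM factors and DESeq2 size factors each kept 50 of the 51 calls. Unique exon reads kept 46 and total gene reads 41, where Pitpnm2 and Tifa had log2 ratios of 0.86 and 0.82 and Igf2bp3, Lgr5, Sc4mol and Dusp10 were also lost. When each lane was left out in turn, 9 to 13 genes were higher and 44 to 48 lower, and 46 of the 51 calls held in every case. Without lane 1 the calls of Prps1l3 and Traf4 were lost, without lane 2 those of Nrxn2, Traf4 and Zfp951, without lane 3 that of Lgr5 and without lane 4 those of Lgr5 and Zfp951. Medians of gene lists left their order-statistic interval in 24 of 495 cases. No paired analysis was possible because lanes are repeat runs of 1 library per time and the result comes from no test. Depth limits genes under 5 CPM, where a few reads set the ratio.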

Other observations

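In the ATF4 list 1 of 30 measured members was at least 1.5-fold higher in exon reads on the log2 scale, against 1.59% of all measured genes. At least 1.5-fold lower were 7, against 2.27%. The list median was -0.06, against -0.0045 over all measured genes. Slc1a5, a glutamine and neutral amino acid transporter, had 1547 CPM at 5 h and 889 CPM at 1.5 h, a log2 ratio of 0.80, while Sesn2, a stress-induced inhibitor of mTORC1, had 19.3 CPM at 5 h and 35.4 CPM at 1.5 h. Other amino acid transporter genes, picked after their values were seen, had log2 ratios of -0.63 (Slc7a1), -0.50 (Slc3a2) and -0.36 (Slc1a4). None of these was called. Reads outside exons of Slc1a5 went the other way, with a log2 ratio of -0.36.

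Genes for adhesion and inhibitory receptors gave no calls. Of these, 7 of 15 homing genes and 5 of 11 inhibitory genes were below a ratio of 1, against 50.9% of all measured genes. Itga4, an integrin chain used for adhesion to marrow stroma, had 246 CPM at 5 h and 164 CPM at 1.5 h, while Itgal, another integrin chain, had 22.4 CPM at 5 h and 38.1 CPM at 1.5 h. Fcgr2b, the inhibitory Fc receptor, had 188 CPM at 5 h and 129 CPM at 1.5 h, while Lilrb4, an inhibitory immunoglobulin-like receptor, had 27.9 CPM at 5 h and 38.5 CPM at 1.5 h. Bmf, a pro-apoptotic member of the BCL2 family, had 52.8 CPM at 5 h and 28.3 CPM at 1.5 h. All 9 measured transcripts encoded in mitochondria had ratios above 1, against 49.1% of all measured genes, with a median log2 ratio of 0.07.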
